A study of Mus musculus with 3 samples.

Results

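The secreted factors and receptors by which somatic cells of the testis sustain germ cells were followed through the cell classes of a testis that held few germ cells. The set is 10 of the 26124 genes in the count tables, and every one of them is described. It comprises 5 ligands (Gdnf, Kitl, Fgf2, Csf1 and Igf1) and 5 receptors (Gfra1, Ret, Kit, Csf1r and Igf1r), taken by gene symbol. None of these genes was used to define a cell class.

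Transcripts of single cells were counted in 3 mouse libraries, 1 per group, so no value carries a spread between animals and no test between conditions could be run. The main library, KO testis, came from the dissociated testis of an adult Tsc22d3 knockout of the goGermline line, which serves as a host for chimeras because its males do not make their own sperm. KO cauda held cells of the cauda epididymis, where sperm are stored, of a knockout of that line, drawn by aspiration through the skin. Chimera cauda was drawn likewise from a chimera whose Tsc22d3-knockout host had received mouse iPSCs (induced pluripotent stem cells), with the line given as Pax7-nGFP iPS x goGermline, and its cells are labelled spermatids and spermatozoa. The host genotype is thus shared by all 3 groups, and no testis with the intact gene was analysed here.

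GDNF is secreted by somatic cells and acts on undifferentiated spermatogonia through GFRA1, which binds the ligand, and RET, the tyrosine kinase that signals, while KITL acts through the kinase KIT on differentiating spermatogonia and on other cells. FGF2 is a growth factor for spermatogonia in culture, and CSF1 keeps macrophages alive and growing through CSF1R, their receptor. IGF1 acts through IGF1R on many cell types and takes part in the development of Leydig cells, the steroid-producing cells between the tubules.

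The KO testis table held 134795047 UMIs (unique molecular identifiers, 1 per captured transcript molecule) in 18108 barcodes, of which 13662 were kept as cells with a median of 5453 UMIs, while 4431 exceeded the limit of 20% mitochondrially encoded UMIs. KO cauda held 41862286 UMIs and 3525 kept cells, and chimera cauda 5395856 UMIs and 184 kept cells, of which 26 were gated as spermatids, 67 as macrophages and 49 as B lymphocytes. In KO cauda 1791 of the kept cells were gated as B lymphocytes, 1024 as macrophages and 28 as epithelial cells. Of the 184 chimera barcodes, 119 were also kept in KO cauda, where 106 fell in the same cell class. No kept barcode was shared by the chimera and the testis, and 8 were shared by KO cauda and KO testis. Levels of Csf1r and Igf1 in chimera macrophages are therefore given with and without the shared barcodes. Transcripts of the targeted gene, Tsc22d3, were counted at 22.8 CPM (counts per 1000000 UMIs) in chimera cauda, 10.8 in KO cauda and 6.05 in KO testis. Where the deleted part lies relative to the counted 3′ end was not analysed here, so these values do not check the labels.

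Cells of the KO testis were assigned to a class when their raw UMIs over a set of marker genes passed a threshold for exactly 1 class. The 8 classes of at least 50 cells entered the comparisons, with 721 Leydig, 1010 Sertoli, 1555 smooth muscle or peritubular myoid (called myoid), 96 pericyte, 2766 fibroblast, 132 endothelial, 2164 macrophage and 81 germ cells. A further 4478 cells met more than 1 class and were left out as mixed, and 616 met none. Of the mixed cells, 3288 met both the Leydig and the Sertoli class. Cells of the Leydig class also carried Sertoli markers, such as Defb19 at 2522 CPM against 6822 CPM in Sertoli cells. A narrower Sertoli gate without Defb19, Amhr2 and Aard, chosen after seeing the data, gave 3982 Leydig and 597 Sertoli cells and is given beside levels that it moved by more than 1.5 times.

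Marker genes kept out of the gates were highest in their own class for 13 of 16. Insl3, a hormone of Leydig cells, stood at 4448 CPM in the Leydig class, Acta2 at 7699 CPM in the myoid class, Lyz2 at 11871.7 CPM in macrophages and Sycp1, of the meiotic synaptonemal complex, at 682 CPM in germ cells. The exceptions were Wt1, at 198 CPM in Sertoli and 404 CPM in endothelial cells, Tagln, at 1529 CPM in myoid cells and 1754 CPM in pericytes, and Plvap, with 1 UMI in the endothelial class. The endothelial label therefore rested on the gate markers and on Esam, at 779 CPM there against 288 CPM in pericytes, its next class.

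Ligand transcripts stood highest in somatic cells, in myoid cells for Gdnf and Fgf2, in fibroblasts for Csf1 and Igf1 and in endothelial cells for Kitl. Of the receptors, Kit was highest in Leydig cells, Csf1r in macrophages and Ret in endothelial and germ cells, and Igf1r was found in every class. A gene was called for a class when its level was at least 4-fold that of all other gated cells together, with at least 10 UMIs in the class and 30 in all gated cells. By this rule 7 of the 10 members were called, 4 ligands and 3 receptors, while over all 14889 genes tested the share called in any class was 38.7%. By class, 7.01% of genes were called for Sertoli cells and 10.2% for germ cells, the largest share, and the other shares are given beside the genes called. With the narrower Sertoli gate 7 members were again called, against 44.2% of 15441 genes. The shares by class were then 3.77% for Leydig, 9.66% for Sertoli, 7.28% for myoid, 3.80% for pericyte, 4.12% for fibroblast, 5.69% for endothelial, 8.10% for macrophage and 11.9% for germ cells. Kitl and Igf1r were not called, and Gfra1, with 12 UMIs in gated cells, was too sparse to be tested. The median of the highest fold was 6.81 over the 9 tested members and 3.23 over all genes tested.

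Gdnf (ENSMUSG00000022144, chr15:7810846-7837575 on the plus strand of GRCm38) was found mainly in myoid and Sertoli cells. Its level was 19.9 CPM in myoid cells (95% interval 16.7 to 23.6, from 136 UMIs) and 9.93 CPM in Sertoli cells (from 107 UMIs). In Leydig cells it was 1.98 CPM (1.28 with the narrower gate), in fibroblasts 0.687 CPM, and germ cells and macrophages gave 1 UMI each (2 in macrophages with the narrower gate, 0.0806 and 0.158 CPM). No UMI was counted in pericytes or endothelial cells, where a count of 0 allows up to 8.63 and 2.19 CPM. Intervals here and below cover counting error only. The myoid level was 2.01-fold that of Sertoli cells (1.55 to 2.61), and the Sertoli level 5.02-fold that of Leydig cells (2.99 to 8.94). Leydig cells were 2.88-fold above fibroblasts (1.14 to 8.21), and below them the classes could not be ordered.

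Against all other gated cells the myoid level of Gdnf was 6.81-fold (5.32 to 8.71), in a class for which 5.50% of all genes were called. The fold was 10.5 with the narrower gate and 13.6 with a mitochondrial limit of 10%. With the narrower gate Sertoli cells stood at 11.4 CPM and were called as well, at 4.83-fold against 2.54-fold with the wider gate. A UMI of Gdnf was seen in 7.91% of myoid and 9.60% of Sertoli cells, but Sertoli cells were sequenced more deeply, with a median of 11510 against 4297 UMIs. After each cell was thinned to 1000 UMIs the shares were 1.996% (1.36 to 2.82) of myoid and 0.967% (0.443 to 1.83) of Sertoli cells, and 0.0467% of macrophages. Cells with fewer UMIs were left out of these shares, 181 Leydig, 79 Sertoli, 146 fibroblast and 24 macrophage cells and at most 2 of any other class. Among mixed cells, the 296 that met both the myoid and the fibroblast class carried 18.8 CPM (12.4 to 27.3) and the 103 that met the myoid and the pericyte class 4.11 CPM (0.498 to 14.9). The myoid level of Gdnf was thus also found in mixed cells that met the myoid and fibroblast classes.

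**Figure D1:**
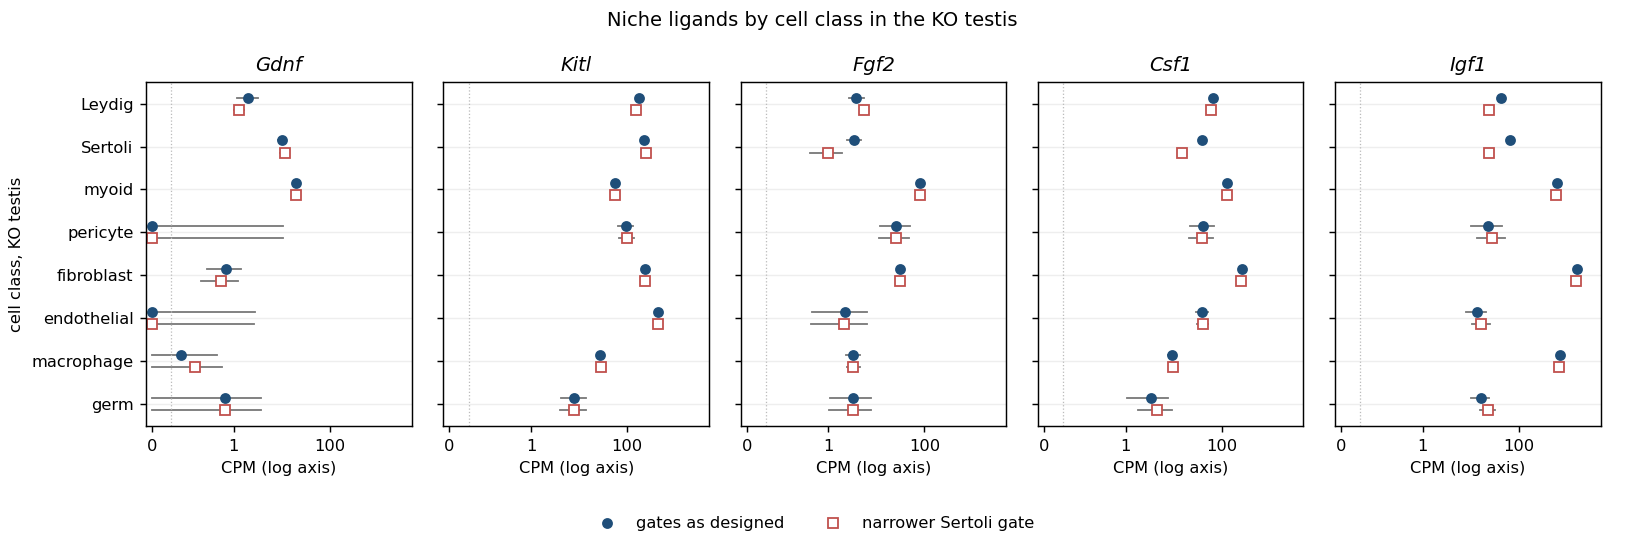
Levels of the 5 ligands in the 8 cell classes of the KO testis, in CPM on a log axis, with 95% Poisson intervals (counting error only); filled circles use the gates as designed and open squares the narrower Sertoli gate, and points left of the dotted line are at 0 or under 0.05 CPM. Gdnf and Fgf2 are highest in myoid cells, at 19.9 and 81.8 CPM, Csf1 and Igf1 in fibroblasts, at 259 and 1607 CPM, and Kitl in endothelial cells, at 436 CPM.

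Kitl (ENSMUSG00000019966, chr10:100015630-100100416 on the plus strand) had levels of over 50 CPM in 6 classes. Its level was 436 CPM in endothelial cells (402 to 472), 233 CPM in fibroblasts (224 to 243), 225 CPM in Sertoli cells (216 to 234) and 174 CPM in Leydig cells (166 to 183). Pericytes followed with 94.9 CPM and myoid cells with 56.0 CPM, then macrophages with 26.8 CPM and germ cells with 7.94 CPM. The order was clear of counting error at every step except that fibroblasts and Sertoli cells were not separable, at a ratio of 1.04 (0.981 to 1.10). Endothelial cells were 1.87-fold above fibroblasts (1.70 to 2.04), and 3.14-fold above all other gated cells (2.88 to 3.41), under the 4-fold rule.

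The endothelial class, of 132 cells, held 7.80% of the gated Kitl UMIs, whereas Sertoli cells held 31.6%, fibroblasts 31.1% and Leydig cells 19.6%. With the narrower gate, which placed 3982 cells in the Leydig class, that class held 60.1% and Sertoli cells 13.5%, at levels of 150 and 245 CPM. A Kitl UMI was seen in 81.8% of endothelial cells, 68.8% of Sertoli cells, 61.3% of Leydig cells and 48.3% of fibroblasts before thinning. The shares after thinning to 1000 UMIs were 34.4% of endothelial cells (26.3 to 43.2), 20.04% of fibroblasts, 17.8% of Leydig cells and 17.6% of Sertoli cells, against 2.66% of macrophages. The endothelial share was the highest before and after thinning.

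Kitl messages come in a longer and a shorter form that differ by 1 exon of 84 bases, exon 6 of the transcript Kitl-202, at chr10:100080857-100080940 on the plus strand of GRCm38. The exon codes for the stretch at which the membrane-bound protein is cut to release soluble KITL, and the membrane-bound form is the one known to be needed by spermatogonia. The sequences below, from GENCODE M21, show this exon in capitals between its 15-base flanks, and the same flanks joined where the transcript Kitl-201 skips it.
Kitl-202: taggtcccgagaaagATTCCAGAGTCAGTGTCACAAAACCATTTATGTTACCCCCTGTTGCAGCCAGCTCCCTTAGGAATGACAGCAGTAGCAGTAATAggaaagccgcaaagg
Kitl-201: taggtcccgagaaagggaaagccgcaaagg
Counts from the 3′ end of the message do not tell these forms apart, so every Kitl value here is the sum of both.

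Fgf2 (ENSMUSG00000037225, chr3:37348346-37410108 on the plus strand) was a transcript of myoid cells and, at a lower level, of fibroblasts and pericytes. It stood at 81.8 CPM in myoid cells (75.1 to 88.9, 558 UMIs), 31.1 CPM in fibroblasts (27.8 to 34.7) and 25.9 CPM in pericytes (11.8 to 49.1, 9 UMIs). With the gates as designed the other 5 classes lay between 2.19 CPM in endothelial and 3.84 CPM in Leydig cells and could not be ordered. Myoid cells exceeded fibroblasts 2.63-fold (2.29 to 3.03) and all other gated cells 8.33-fold (7.34 to 9.45). The Sertoli level was 0.974 CPM (0.421 to 1.92) with the narrower gate, against 3.43 CPM. With that gate Leydig cells, at 5.44 CPM (4.86 to 6.06), lay above Sertoli cells and above macrophages, at 3.32 CPM (2.40 to 4.49). The larger Leydig class then held 25.1% of the gated Fgf2 UMIs, against 26.2% in fibroblasts and 43.5% in myoid cells. In mixed cells that met both the myoid and the fibroblast class Fgf2 was 84.2 CPM (69.9 to 100.6). At 1000 UMIs per cell, 6.76% of myoid cells (27.7% unthinned) and 2.67% of fibroblasts had a UMI, against 0.280% of macrophages. Exons of Fgf2 share 640 bases with Nudt6 on the opposite strand, and whether strand was used in counting is not given in the sources used here. Nudt6 ranged from 6.57 CPM in endothelial to 28.1 CPM in Leydig cells, with 15.4 CPM in myoid cells, and so did not have the profile of Fgf2.

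Csf1 (ENSMUSG00000014599, chr3:107741048-107760469 on the minus strand) was highest in fibroblasts, at 259 CPM (249 to 269), with 126 CPM in myoid cells (118 to 135). Leydig cells had 64.7 CPM, pericytes 40.3, endothelial cells 39.4 and Sertoli cells 38.6 CPM. Macrophages, the cells that respond to CSF1, had 9.35 CPM (7.73 to 11.2), and germ cells 3.31 CPM. Fibroblasts exceeded myoid cells 2.05-fold (1.90 to 2.22) and myoid cells exceeded Leydig cells 1.95-fold (1.75 to 2.18). Pericytes were not separable from Leydig, endothelial or Sertoli cells, and endothelial cells not from Sertoli cells, while Leydig cells exceeded Sertoli cells 1.67-fold (1.47 to 1.91). The Sertoli value was 14.7 CPM (12.2 to 17.6) with the narrower gate. Over all other gated cells the fibroblast level was 5.37-fold (5.07 to 5.70), in a class for which 2.68% of genes were called, and fibroblasts held 56.6% of the gated Csf1 UMIs. With the narrower gate, and its larger Leydig class, they held 37.2% and Leydig cells 46.8%.

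Igf1 (ENSMUSG00000020053, chr10:87858265-87937042 on the plus strand) was carried by fibroblasts, macrophages and myoid cells. The level was 1607 CPM in fibroblasts (1583 to 1632), 702 CPM in macrophages (687 to 717) and 606 CPM in myoid cells (588 to 625). Lower levels were counted in Sertoli cells with 66.4, Leydig cells with 42.2, pericytes with 23.0, germ cells with 15.9 and endothelial cells with 13.1 CPM. Macrophages exceeded myoid cells 1.16-fold (1.12 to 1.202), and myoid cells exceeded Sertoli cells 9.14-fold (8.44 to 9.90). With the narrower gate the Sertoli level was 23.3 CPM and the Leydig level 24.3 CPM. Fibroblasts held 54.0% of the gated UMIs, macrophages 28.7% and myoid cells 13.6%. The call of Igf1 for fibroblasts, at 4.84-fold over all other gated cells, rested on the cell filter, since with a mitochondrial limit of 10% the fold was 3.28, and it was 9.72 with the narrower gate.

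Free RNA from burst cells gives each class a low background of genes it does not express. Igf1, Kit and Csf1r were therefore each set beside a marker of the class with the highest level of that member. Of the markers examined, Dcn, Cyp17a1 and C1qa were used in the gates, and cells that met more than 1 class were left out. Their levels outside their own class were thus partly set by the gates. Col1a2, Insl3, Ms4a7 and Lyz2 were kept out of the gates. In macrophages Igf1 stood at 43.7% of its fibroblast level, while the fibroblast gene Dcn, a matrix proteoglycan, stood at 0.707% of its own. In myoid cells the values were 37.7% for Igf1 and 8.18% for Dcn. In endothelial cells, germ cells and pericytes both genes were low, with Igf1 between 0.818% and 1.43% and Dcn between 0.452% and 0.906%. In Leydig and Sertoli cells Igf1 stood at 2.63% and 4.13% of the fibroblast level, with Dcn at 1.5% and 2.01%. Col1a2, a collagen gene and the other fibroblast marker examined, stood at 2.02% in macrophages, 56.5% in myoid cells, 4.69% in Leydig cells, 9.29% in Sertoli cells, 2.05% in endothelial cells, 0.954% in germ cells and 52.9% in pericytes. Igf1 thus exceeded both markers in macrophages. In germ cells Igf1 stood at 0.988% (24 UMIs) against 0.954% for Col1a2 (20 UMIs). With the narrower gate these were 1.45% and 1.75%, so the order of the 2 genes in germ cells depended on the gate. In myoid, Leydig, Sertoli and endothelial cells and in pericytes Igf1 lay above Dcn and below Col1a2.

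**Figure D2:**
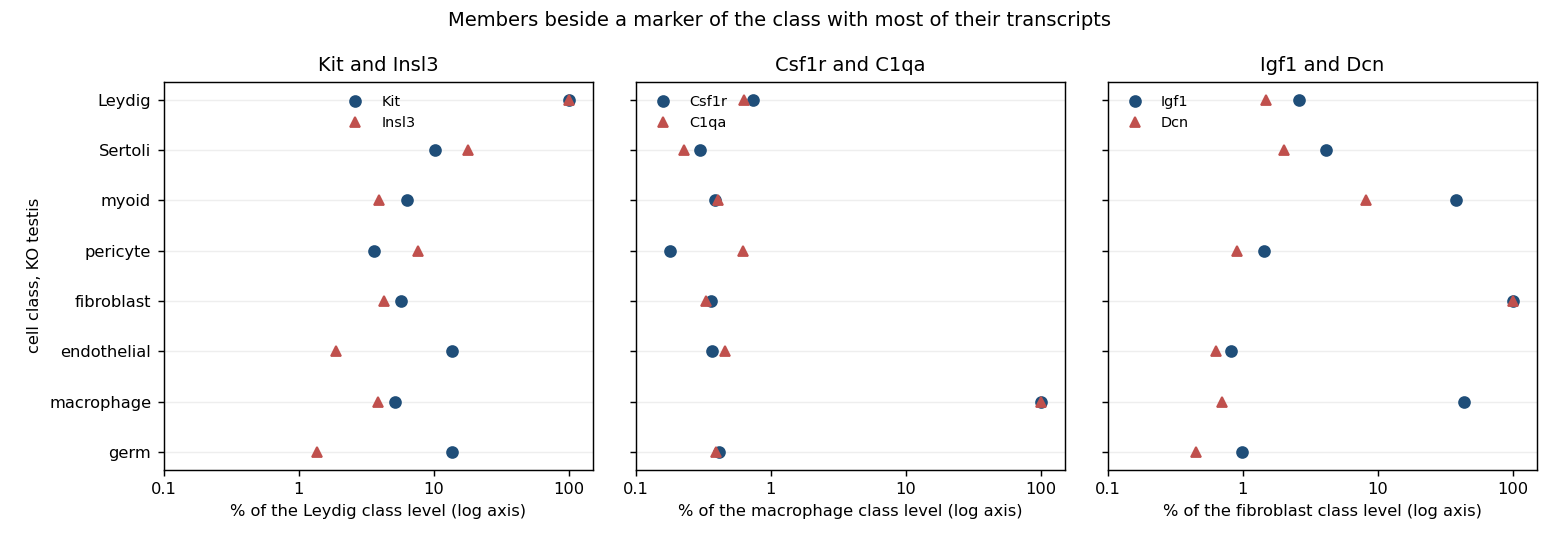
Level of a member (circles) and of a marker (triangles) in each class of the KO testis, as a percent of the level in the class named on each axis (log axis). Of the markers drawn, Dcn and C1qa were used in the gates and Insl3 was not. Kit in germ and endothelial cells (13.7% and 13.5% of the Leydig level) lies right of Insl3 (1.37% and 1.87%). In the drawn classes other than macrophages Csf1r stays near C1qa. Igf1 in macrophages (43.7%) lies far right of Dcn (0.707%). Col1a2 and Cyp17a1 are not drawn.

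Of the receptors, Gfra1 (ENSMUSG00000025089, chr19:58235604-58455909 on the minus strand), the GDNF-binding coreceptor, had most of its 12 gated UMIs in germ cells. It was counted with 10 UMIs in germ cells, at 6.61 CPM (3.17 to 12.2), and with 1 UMI each in Sertoli cells and pericytes. The other 5 classes had 0 UMIs, which allows at most 0.242 CPM in macrophages, 0.294 in fibroblasts, 0.349 in Leydig, 0.440 in myoid and 2.19 in endothelial cells. The germ level was 71.3-fold that of Sertoli cells, with a wide interval (10.1 to 3092), and was not separable from the 1 UMI of the 96 pericytes. All 10 germ UMIs came from 5 cells.

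Ret (ENSMUSG00000030110, chr6:118151745-118197718 on the minus strand), the signalling partner of GFRA1, was found in endothelial, germ and Sertoli cells. Endothelial cells had 22.6 CPM (15.4 to 32.1, 31 UMIs in 27 cells), germ cells 13.2 CPM (8.08 to 20.4, 20 UMIs in 15 cells) and Sertoli cells 2.32 CPM (25 UMIs in 13 cells). Pericytes and fibroblasts gave 1 UMI each, macrophages 2 and Leydig cells 3 (0.349 CPM, and 0.151 CPM with the narrower gate), and myoid cells had 0, which allows up to 0.440 CPM. The endothelial and germ levels did not differ beyond counting error, at a ratio of 1.71 (0.945 to 3.17), and the Sertoli level lay below germ cells by a ratio of 5.70 (3.002 to 10.7). Against all other gated cells Ret was called for endothelial cells, at 22.1-fold (13.7 to 35.2), and for germ cells, at 10.6-fold, in classes for which 4.58% and 10.2% of genes were called. A UMI of Ret was seen in 20.5% of endothelial and 18.5% of germ cells. At 1000 UMIs per cell 5 of 131 endothelial and 0 of 80 germ cells had one, and with the narrower gate, thinned anew, 2 of 134 and 2 of 84, too few to order the classes at equal depth. The folds were 36.9 and 18.3 with the narrower gate.

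The cells with Ret were examined for markers of other classes. All 27 endothelial cells with Ret carried endothelial gate markers, with 3999 UMIs in sum, and none carried a UMI of a germ gate marker or of Gfra1. Of these 27 cells, 8 carried UMIs of the narrower Sertoli gate, 10 in all with at most 3 in a cell. The endothelial cells without Ret, the larger part of the 132 in the class, carried 12. The Ret cells thus carried more of these UMIs per cell. The part of Sertoli RNA in the endothelial Ret level was not tested. Of the 13 Sertoli cells with Ret, 12 carried markers of the narrower Sertoli gate and 2 carried germ marker UMIs, 5 in all, and 0 carried Gfra1. Of the 15 germ cells with Ret, 7 carried UMIs of endothelial gate markers, 17 in all with at most 4 in a cell. The rest of the 81 germ cells carried 49, and the part of endothelial RNA in the germ Ret level was not tested. Among germ cells Gfra1 was found in 5 of the 15 cells with Ret. Ret and Gfra1 together, the receptor pair for GDNF, were thus seen in 5 germ cells and in 0 of the endothelial or Sertoli cells. Depth differed, with a median of 17736 UMIs in germ, 8849.5 in endothelial and 11510 in Sertoli cells. At 1000 UMIs per cell 0 of 80 germ cells had a UMI of Gfra1, so the classes could not be compared for the pair at equal depth.

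Kit (ENSMUSG00000005672, chr5:75574916-75656722 on the plus strand) was highest in Leydig cells. Its level there was 319 CPM (307 to 331), and 336 CPM in the 3982 Leydig cells of the narrower gate. Germ cells had 43.7 CPM (33.8 to 55.5), endothelial cells 43.1 CPM (32.8 to 55.6) and Sertoli cells 32.4 CPM (29.1 to 36.0), and with the narrower gate Sertoli cells had 10.6 CPM (8.49 to 13.1). Myoid cells, fibroblasts, macrophages and pericytes lay at 20.1, 18.1, 16.4 and 11.5 CPM, and neighbours among these classes were not separable. Leydig cells exceeded germ cells 7.31-fold (5.72 to 9.47) and all other gated cells 13.8-fold (12.8 to 14.8), where 2.87% of genes were called. With the narrower gate Leydig cells held 96.2% of all gated Kit UMIs. After thinning to 1000 UMIs, 25.7% of Leydig cells (22.1 to 29.7) had a Kit UMI (68.5% unthinned), against 1.59% of macrophages.

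The low Kit counts in other classes were set beside Insl3, which was kept out of the gates, and beside the gate marker Cyp17a1. In macrophages Kit stood at 5.13% of its Leydig level and Insl3 at 3.85%, in fibroblasts at 5.69% and 4.27%, and in myoid cells at 6.30% and 3.90%. In germ cells the values were 13.7% for Kit and 1.37% for Insl3, and in endothelial cells 13.5% and 1.87%, and Cyp17a1, an enzyme of androgen synthesis and the other Leydig marker examined, stood at 1.56% and 2.29%, so that in these classes Kit exceeded both. In macrophages, fibroblasts and myoid cells Cyp17a1 stood at 4.15%, 4.09% and 4.78%, so that Kit exceeded both markers there too, by a smaller margin. In pericytes Kit, at 3.61%, lay below Insl3 at 7.6% and Cyp17a1 at 7.3%. In Sertoli cells with the wider gate Kit, at 10.2%, lay between Insl3 at 17.8% and Cyp17a1 at 3.37%. With the narrower gate the values were 3.15%, 2.10% and 1.99%, with Kit above both markers.

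**Figure D3:**
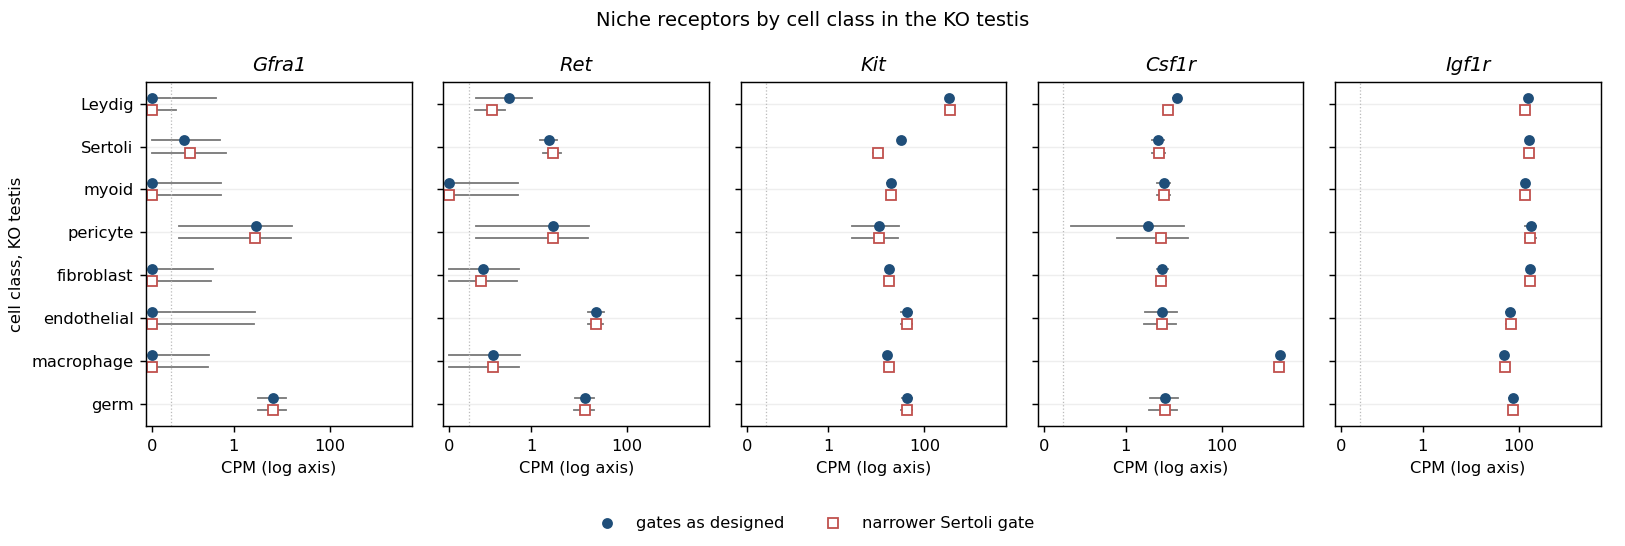
Levels of the 5 receptors in the 8 cell classes of the KO testis, in CPM on a log axis, drawn as for the ligands with 95% Poisson intervals; points left of the dotted line are at 0 or under 0.05 CPM. Kit is highest in Leydig cells (319 CPM), Csf1r in macrophages (1600 CPM), Ret in endothelial and germ cells (22.6 and 13.2 CPM) and Gfra1 in germ cells (6.61 CPM), while Igf1r spans 49.7 to 175 CPM.

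Csf1r (ENSMUSG00000024621, on chromosome 18) had nearly all of its UMIs in macrophages. It stood at 1600 CPM in macrophages (1578 to 1622). In the other classes of at least 50 cells it lay between 2.88 CPM in pericytes and 11.7 CPM in Leydig cells. These were 5.57 and 7.52 CPM with the narrower gate. The 10 cells gated as monocyte or dendritic, too few to enter the comparisons, had 125 CPM with that gate (57.0 to 237, 9 UMIs). Macrophages held 98.6% of the gated Csf1r UMIs and exceeded all other gated cells 225-fold (200 to 254), in a class for which 6.90% of genes were called. In the classes of at least 50 cells other than macrophages Csf1r lay at 0.180% to 0.734% of the macrophage level. C1qa, a complement gene used in the macrophage gate, lay at 0.228% to 0.630%. The macrophage markers Ms4a7 and Lyz2, kept out of the gates, lay at 0.0983% to 0.855% and 0.252% to 0.684%. At 1000 UMIs per cell, 78.4% of macrophages (97.7% unthinned) had a UMI of Csf1r, against 0.430% of Sertoli cells. Exons of Csf1r share 873 bases with Hmgxb3 on the other strand, which ranged from 13.0 to 38.5 CPM over the classes with 15.8 CPM in macrophages, and here too the use of strand in counting is not given.

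Igf1r (ENSMUSG00000005533, chr7:67952827-68233668 on the plus strand) was found in all 8 classes within a narrow range. Pericytes had 175 CPM (134 to 225), fibroblasts 170, Sertoli cells 160, Leydig cells 156 and myoid cells 133 CPM (124 to 142). Germ cells had 76.7 CPM (63.4 to 92.0), endothelial cells 66.4 CPM (53.5 to 81.6) and macrophages 49.7 CPM (45.9 to 53.8). Pericytes, fibroblasts, Sertoli and Leydig cells were not separable as neighbours, Leydig cells exceeded myoid cells 1.18-fold (1.08 to 1.29), and myoid cells exceeded germ cells 1.73-fold (1.42 to 2.12). The highest level was 3.53-fold the lowest (2.67-fold at the lower bound). Macrophages thus combined the lowest level of the receptor with the second highest level of its ligand, while fibroblasts had the highest level of the ligand and were not separable from pericytes, the highest class for the receptor.

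Receptor transcripts divided the 81 germ cells. A UMI of Ret was seen in 15 cells (18.5%, exact binomial interval 10.8 to 28.7), of Kit in 30 (37.0%, 26.6 to 48.5), of Gfra1 in 5 (6.17%, 2.03 to 13.8) and of Igf1r in 47 (58.0%, 46.5 to 68.9). Ret and Kit occurred together in 4 cells, and 40 cells had none of Gfra1, Ret and Kit. The groups differed in depth, with a median of 22045 UMIs in the Ret cells, 18121 in the 26 cells with Kit and no Ret, and 9802 in the 40 cells without any, so an absent UMI is weaker evidence in the last. These groups were made from the transcripts themselves and are described without a test.

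Zbtb16, a transcription factor of undifferentiated spermatogonia, was found in 13 of the 15 Ret cells, at 98.5 CPM (70.7 to 134), and in 3 of the 26 cells with Kit and no Ret, at 5.76 CPM. Of its 41 UMIs in Ret cells, 26 lay in the 4 cells that also had Kit, whose median depth was 48194.5 UMIs. The 11 Ret cells without Kit had 64.2 CPM of Zbtb16 (36.0 to 106), and the 40 cells with none of the receptors 52.1 CPM (35.2 to 74.5). Sall4, another spermatogonial factor, was 98.5 CPM in Ret cells and 30.7 CPM in cells with Kit and no Ret. Nanos3 was found in 6 of the 15 and 0 of the 26. Stra8, which marks the response to retinoic acid, was 144 CPM in Ret cells (110 to 186) and 354 CPM in cells with Kit and no Ret. Prdm9, the methyltransferase that places meiotic breaks, had 0 UMIs in the 15 Ret cells and was found in 10 of the 26, at 28.8 CPM. The 40 cells with none of the receptors had Prdm9 in 10 cells, at 48.7 CPM, and Stra8 at 346 CPM. They had Sall4 at 62.6 CPM and Nanos3 in 5 cells. High Stra8 and the presence of Prdm9 were thus not particular to the cells with Kit. All 5 cells with Gfra1 also had Ret and Zbtb16, 3 of them had a single UMI of Kit each, and their median depth was 27767 UMIs. Stra8 and Sycp3, a synaptonemal complex gene, were germ gate markers, so cells entered the class in part through their transcripts. Sycp3 was found in 78 of the 81 germ cells and in all 5 with Gfra1. Its level was 214 CPM in the Ret cells, 1043 CPM in cells with Kit and no Ret and 1474 CPM in the 40 cells with none of the 3 receptors.

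**Figure D4:**
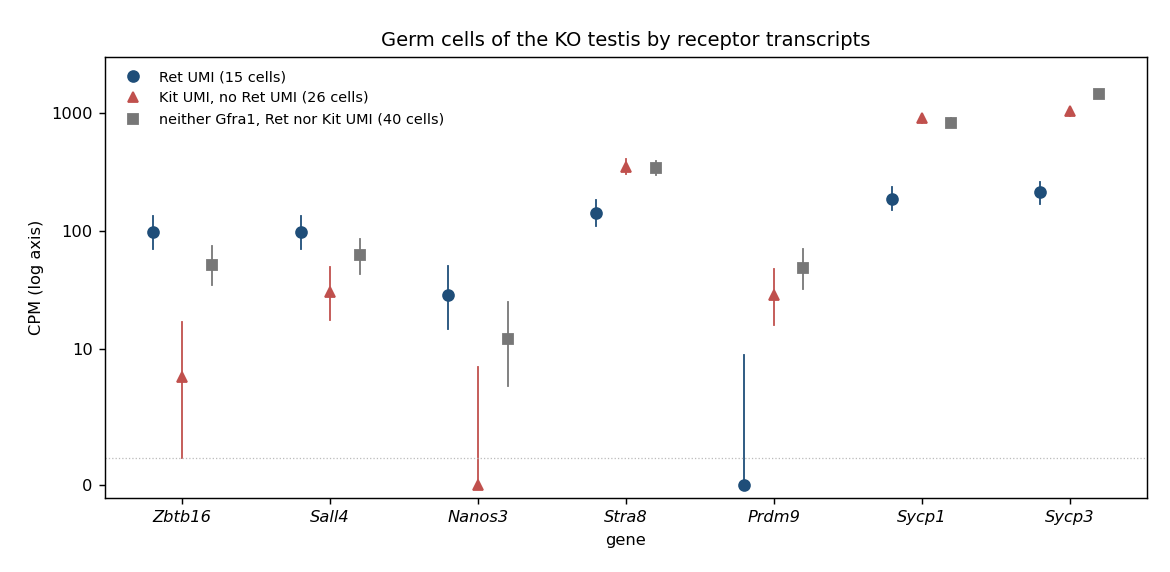
Levels of 7 germ cell genes in germ cells of the KO testis grouped by receptor UMIs, in CPM on a log axis with 95% Poisson intervals; points below the dotted line are at 0. Zbtb16 is 98.5 CPM in the 15 Ret cells and 5.76 CPM in the 26 cells with Kit and no Ret. Prdm9 has 0 UMIs in the Ret cells. Stra8 and Sycp3 were germ gate markers.

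Macrophages were the class that could be compared between organs, with 2164 cells in KO testis, 1024 in KO cauda and 67 in chimera cauda. Their median depths were 5551.5, 17388 and 27305 UMIs. Csf1r stood at 1600 CPM in the testis, 591 CPM in KO cauda (580 to 602) and 681 CPM in chimera cauda (642 to 721). Igf1 was 702 CPM in the testis, 129 CPM in KO cauda (124 to 134) and 148 CPM in chimera cauda (130 to 168). The testis exceeded KO cauda 2.71-fold for Csf1r (2.65 to 2.77) and 5.45-fold for Igf1 (5.20 to 5.71). Igf1r was 1.74-fold higher in testis macrophages (1.55 to 1.96), and Csf1 did not differ beyond counting error, at 9.35 against 7.52 CPM. Without testis cells of high doublet score the testis value of Csf1 was 5.39 CPM, under that of KO cauda, which was not filtered in this way. Kitl, Kit and Fgf2, at 333, 203 and 41 UMIs in testis macrophages and 8, 5 and 1 UMIs in KO cauda, had larger ratios of 60.7 (30.4 to 141.7), 59.2 (24.9 to 184.2) and 59.7 (10.1 to 2417). Each of these 3 genes was higher in other classes of the testis than in its macrophages, and the part of free RNA in these ratios was not tested. Lyz2, a general macrophage gene, went the other way, at 11871.7 CPM in the testis and 39915.9 CPM in KO cauda.

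Of the 67 chimera macrophages, 57 had a barcode that was also kept in KO cauda. Over cells whose barcode was in no other library, 964 macrophages of KO cauda had 588 CPM of Csf1r and 129 CPM of Igf1, and the ratios to the testis were 2.72 and 5.43. The 10 remaining chimera macrophages had 578 CPM of Csf1r (316 to 970, 14 UMIs) and 165 CPM of Igf1 (45.0 to 423, 4 UMIs). Organ, animal and sample preparation cannot be told apart in these libraries.

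Within the testis, macrophages also differed by antigen presentation genes. The class was cut at 0.1% of UMIs from H2-Aa, H2-Ab1 and H2-Eb1, a range and not a cell type, with 139 of 2164 cells within a factor of 2 of the cut. Igf1 was 769 CPM (752 to 786) in the 1721 cells under the cut and 378 CPM (353 to 405) in the 443 cells above it, a ratio of 2.03 (1.89 to 2.19). Csf1r was 1642 and 1400 CPM, a ratio of 1.17 (1.13 to 1.22). In KO cauda, the same cut gave 132 CPM of Igf1 in 859 cells under it and 111 CPM in 165 cells above it. There 289 of 1024 cells lay within a factor of 2 of the cut, a larger part than in the testis, so the cut parted them less cleanly.

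**Figure D5:**
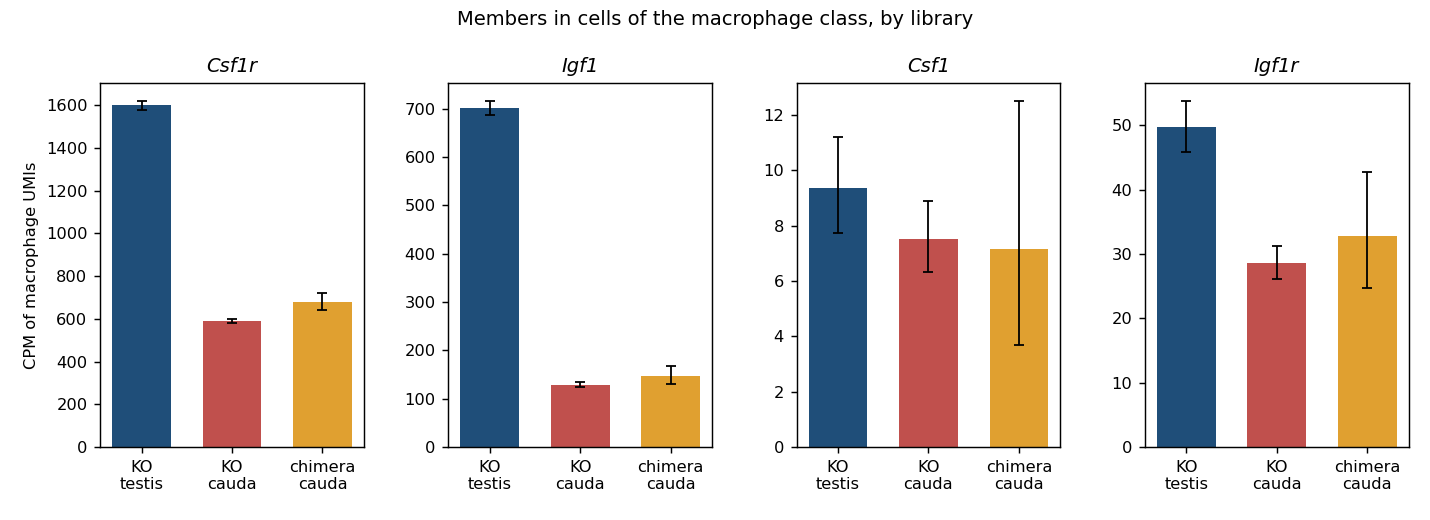
Levels of Csf1r, Igf1, Csf1 and Igf1r in the macrophage class of each library (2164, 1024 and 67 cells), in CPM with 95% Poisson intervals (counting error only); each panel has its own axis from 0. Csf1r and Igf1 are highest in the KO testis, at 1600 and 702 CPM, and 57 of the 67 chimera macrophages share a barcode with KO cauda.

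Summed over all barcodes of a library, 7 of the 10 members were at least 4-fold higher in KO testis than in KO cauda and 0 were lower, where 19.3% of 17959 genes were higher and 10.3% lower. Kitl was 135-fold higher (99.7 to 187), Kit 85.0-fold (69.5 to 105), Fgf2 38.1-fold (22.6 to 69.8), Csf1 13.4-fold (11.8 to 15.4), Igf1 5.11-fold and Igf1r 4.06-fold (3.83 to 4.30). Gdnf, with 429 UMIs in the testis and 0 in KO cauda, was at least 44.4-fold higher. Ret was not separable, at 0.861 against 0.621 CPM, and of the 26 UMIs of Ret in KO cauda 9 lay in T or NK lymphocytes and 6 in epithelial cells. Csf1r was 0.661-fold (0.646 to 0.676), with 178 CPM in the testis and 269 CPM in KO cauda. Fewer cells of a type and less RNA per cell cannot be told apart in such sums. In chimera cauda the sums over all barcodes held 6 UMIs of Kitl (1.11 CPM, against 1.003 CPM in KO cauda), 4 of Kit, 2 of Ret, 2 of Gfra1 and 0 of Gdnf. None of these UMIs lay in barcodes of at least 500 UMIs, which include all shared ones, where the exact upper bound is 1.25 CPM.

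Other genes of these pathways came from 11 lists of 124 genes chosen with earlier results of these data known. Of these, 96 could be tested, 69 were called for at least 1 class and the median of their highest fold was 6.96, against 38.7% of all genes called and a median of 3.23. Amhr2 and Dhh were themselves gate markers, and without them 67 were called. Among 10 relatives of GDNF and its receptors, 6 were tested and 4 called. The syndecan Sdc3 was 87.2 CPM in macrophages and 86.3 CPM in pericytes. Gfra4, the coreceptor of persephin, was 69.0 CPM in fibroblasts and 50.4 CPM in myoid cells, and Sorl1, a sorting receptor, was 21.3 CPM in Sertoli cells and not called. Nrtn, a ligand of the GDNF family named after its values were seen, was 25.8 CPM in myoid cells, the class with the highest level of Gdnf.

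Of 8 spermatogonial genes, whose response to GDNF was not examined here, 5 were tested and 3 called. Id4 was called for pericytes, where 3.03% of all genes were called, and for Sertoli cells. Pou3f1 was called for Sertoli and germ cells and Bcl6b for endothelial cells, both named after their values were seen. Etv5 was 52.8 CPM in fibroblasts, 45.9 CPM in Sertoli cells and 7.27 CPM in germ cells. Zbtb16 was 48.9 CPM in germ cells and 36.3 CPM in Leydig cells, and Id4, a helix-loop-helix inhibitor, was 127 CPM in pericytes. The germ class was thus the lowest of the 8 for Etv5 and the highest for Zbtb16.

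All 6 tested FGF ligands of 12 were called. Fgf7 and Fgf10, which act on epithelia, were both highest in fibroblasts, at 26.0 and 25.2 CPM, and Fgf9 in macrophages, at 8.06 CPM. Of 8 FGF receptors and coreceptors 6 were tested and 3 called. Sdc4 was 627 CPM in Sertoli cells, Fgfr1 ranged from 17.2 CPM in Sertoli cells to 150 CPM in macrophages, and Fgfr2 was 45.0 CPM in myoid cells. Neither FGF receptor was called.

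Of 6 further CSF family ligands 2 were tested and 1 called. Il34, the other ligand of CSF1R, was 167 CPM in pericytes, followed by 4.98 CPM in myoid cells, so its highest class was another than that of Csf1. Flt3l was 6.67 CPM in fibroblasts, and Csf2 had 4 UMIs. Of 5 CSF family receptors 4 were tested and 3 called, each of these for macrophages. Csf2ra was 77.8 CPM in macrophages, Csf2rb was 117 CPM in endothelial cells and 86.6 CPM in macrophages, and Il3ra was 35.0 CPM in Sertoli cells.

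Of 7 further genes listed with the IGF ligands and receptors 5 were tested and 3 called. The list also held the adaptors Irs1 and Irs2, and Rxfp2, which is no IGF receptor. The adaptor Irs2 was 103 CPM in myoid cells, the insulin receptor Insr 163 CPM in endothelial cells and Igf2r, which clears IGF2, 34.5 CPM in pericytes. Of 13 IGF binding proteins and proteases 10 were tested and 7 called. Igfbp7 was 6487 CPM in endothelial cells, Igfbp6 2309 CPM in fibroblasts and Igfbp4 663 CPM in endothelial and 420 CPM in fibroblasts. Fibroblasts, the class with most Igf1, were thus also the class with most Igfbp6, a binding protein that prefers IGF2.

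Of 22 genes listed as other niche ligands, among them the receptor Ednrb, 21 were tested and 19 called. Of 22 other niche receptors 22 were tested and 14 called. Cxcl12, a chemokine that retains germ cells, was 744 CPM in endothelial cells and 505 CPM in fibroblasts. Wnt6 was 328 CPM in Leydig cells and 227 CPM in fibroblasts, and Tgfb1 was 203 CPM in macrophages. Pdgfra was 666 CPM in fibroblasts, Lifr 413 CPM in Leydig cells and 286 CPM in endothelial cells, and Amhr2, used in the Sertoli gate, 738 CPM in Sertoli cells. Of 11 genes of retinoic acid metabolism and response 9 were tested and 6 called. Aldh1a1, which makes retinoic acid, was 2877 CPM in Leydig cells and Cyp26b1, which breaks it down, 2624 CPM in myoid cells, while the receptor Rara was 64.6 CPM in fibroblasts and 62.0 CPM in Sertoli cells.

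The genes with the most similar profile over the 8 classes were found among 12106 genes by the Pearson correlation of log2(CPM + 1). The 8 points come from 1 library and differ in depth, and the values are descriptions. Csf1r was matched by Cd84, Slamf9 and Cd48 (0.997 to 0.996), and Fgf2 by Col4a6, Tcf23 and Hr (0.994 to 0.987). Csf1 was closest to Abi3bp (0.986), then Tmem242 and Nicn1, and Igf1r to Ccbe1 (0.968), Mmgt2 and Ubxn2b. Gdnf was closest to Kcnma1 (0.961), Fam89a and Anapc7, and Igf1 to Lsp1 (0.958), Tmem119 and Sulf2. For Kit the genes were Gchfr (0.958), Klhdc8a and Hsbp1l1, and for Kitl they were Marc2 (0.928), Nfil3 and Ccdc28b. The narrower gate gave partly other genes, as for Gdnf, where they were Bag2, Fam89a and Glipr2. Gfra1 and Ret had fewer than 100 UMIs in gated cells and were not ranked.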

How the data were processed

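The deposited matrices hold raw UMI counts per gene and barcode, with no normalization by the authors. Cell Ranger 6, Seurat 4.2.1 and GRCm38.p6 are listed in the notes on processing that the submitters gave, and per the file headers Cell Ranger 4 wrote the chimera table and 6.1.2 both knockout tables. Members and lists were chosen with earlier results of these data known. Barcodes with at least 500 UMIs, at least 200 genes and at most 20% mitochondrial UMIs were kept. A cell met a class with at least 3 marker UMIs from at least 2 markers, at least 0.1% of its total and at least the library's mean share, over 16 classes and 110 markers. Cells that met more than 1 class were left out, which was also the treatment of doublets. CPM is a gene's summed UMIs per 1000000 UMIs of the class or library. With 1 sample per group no test was run. Levels have exact Poisson, shares exact (Clopper-Pearson) and folds exact conditional binomial 95% intervals, which cover counting error only, and a count of 0 was read as up to 3 UMIs. All members are named, from each list the 3 genes with most UMIs, and for each member the 3 genes most like it. Gene IDs were matched to GENCODE M21 (26013 of 26124). The call rule was also run on simulated Poisson counts in which only abundant genes were changed. Sparse members such as Ret and Gdnf were not covered by it. Python 3.11.15, numpy 2.4.6, scipy 1.17.1 and pandas 2.3.3 were used.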

Additional observations from a re-analysis of the deposited data

How the results depend on the processing

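No paired analysis was possible because each group has 1 library. The class with the highest level of a member was the same for 8 to 10 of 10 members over the gate, filter, doublet and scaling alternatives, with Igf1r and Gfra1 the exceptions. The number of members called was 6 with a mitochondrial limit of 10%, where Igf1 in fibroblasts was at 3.28-fold, 8 with no minimum in gated cells, where Gfra1 was called for germ cells, and 7 otherwise. Kitl in endothelial cells, at 3.14-fold, was 2.73-fold at its lowest and reached 4-fold after rounding, just under the limit, with 10% mitochondrial UMIs. At 500 or 3000 UMIs per cell, 8 members kept the class of their highest share. The count of 7 members between KO testis and KO cauda held in 3 alternatives. Sending mixed cells to their highest class moved 27 of 80 levels by more than 1.5 times, a limit of 10% mitochondrial UMIs 15, and leaving out 1493 cells (10.9%) with high doublet scores 10, among them Igf1 in Leydig, pericyte and endothelial cells. With mixed cells reassigned, Kit in Leydig cells was 5.51-fold and Csf1r in macrophages 76.0-fold. Depth limits Gfra1 and Ret, with 12 and 83 gated UMIs.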
